A study of Mus musculus with 8 samples.

Results

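Dendritic cell genes were followed in 8 mouse tumours by bulk RNA sequencing. The set holds 10 genes of conventional and plasmacytoid dendritic cells, chosen by symbol, out of 35275 in the count table: Clec9a, Xcr1, Batf3, Cd209a, Zbtb46, Siglech, Ccr7, Fscn1, Irf8 and Irf4. All 10 were found once each, and 9 of them had enough reads to be tested, Cd209a being the exception. The tumours are 4 peritoneal primary tumours labelled Pak2-null (13, 14A, 59 and 61), from mice homozygous for floxed Pak2 (Pak2 f/f) together with Nf2 f/f and Cdkn2a f/f, and 1 secondary tumour, 14B, of the same labelled genotype. They stand beside 3 peritoneal primary tumours (19, 20 and 127) from mice with floxed Nf2 and Cdkn2a and wild-type Pak2. All mice received an adenovirus carrying Cre recombinase into the peritoneum, so every tumour, wild-type for Pak2 or not, is labelled as having lost Nf2 and Cdkn2a. The labels give no ages, do not say which peritoneal cells the virus reached, and do not tie each tumour to an animal of its own, so p-values speak only for the spread among these samples. The leukocytes in such a tumour need not carry the tumour's genotype.

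Dendritic cells take up antigen, carry it to lymphoid tissue and show it to T cells. Type 1 conventional dendritic cells depend on the transcription factors IRF8 and BATF3 and bear the receptors CLEC9A and XCR1, while type 2 cells depend more on IRF4 and, in mice, can bear CD209a. Plasmacytoid dendritic cells, known for type I interferon, bear Siglec-H in mice. On maturation, dendritic cells switch on the chemokine receptor CCR7 and the actin bundler fascin and move to lymph nodes. Several of these genes are also used elsewhere: Irf4 and Irf8 in B cells, Ccr7 in naive lymphocytes, Zbtb46 in endothelium and Fscn1 in mesenchymal and tumour cells. In bulk tissue, fewer cells of a type and less RNA per cell cannot be told apart.

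The promoters of 4 members are shown because the results turn on these genes: 3 transcription factor genes and the receptor gene Clec9a, all highest in the same tumour. The sequences are RefSeq's for GRCm38.p6, 250 bases before to 50 after the annotated start, read on the gene's own strand, and 9 of the 10 members had an entry. Capitals mark matches on either strand to TGANTCA (bound by AP-1 and BATF factors), GAAA and GAAA with 2 bases between (interferon regulatory factors), GGAA and GAAA with 2 bases between (ETS and IRF factors together), GAGGAA (PU.1), or GGGA and CC with 4 bases between (NF-kB). The motifs may overlap. Such matches describe letters and show no binding.
Batf3, chr1:191098164-191098463, plus strand: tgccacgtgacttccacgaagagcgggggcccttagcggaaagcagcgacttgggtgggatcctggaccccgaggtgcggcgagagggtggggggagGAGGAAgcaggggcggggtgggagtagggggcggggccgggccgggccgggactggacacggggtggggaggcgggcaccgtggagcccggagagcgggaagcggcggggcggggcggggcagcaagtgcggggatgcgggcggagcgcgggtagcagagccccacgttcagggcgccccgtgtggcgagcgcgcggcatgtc
Irf8, chr8:120736108-120736407, plus strand: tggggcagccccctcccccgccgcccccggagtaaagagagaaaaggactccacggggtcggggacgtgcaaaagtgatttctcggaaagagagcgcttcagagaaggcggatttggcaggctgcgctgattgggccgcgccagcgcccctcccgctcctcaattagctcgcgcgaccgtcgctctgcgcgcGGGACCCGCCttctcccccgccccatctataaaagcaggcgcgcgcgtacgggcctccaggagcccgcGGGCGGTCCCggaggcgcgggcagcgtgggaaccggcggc
Irf4, chr13:30748983-30749282, plus strand: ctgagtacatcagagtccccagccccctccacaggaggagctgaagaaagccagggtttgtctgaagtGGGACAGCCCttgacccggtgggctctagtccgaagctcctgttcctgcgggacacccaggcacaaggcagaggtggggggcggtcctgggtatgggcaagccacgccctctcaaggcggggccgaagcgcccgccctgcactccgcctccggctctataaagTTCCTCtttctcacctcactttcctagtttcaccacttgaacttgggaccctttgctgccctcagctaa
Clec9a, chr6:129408612-129408911, plus strand: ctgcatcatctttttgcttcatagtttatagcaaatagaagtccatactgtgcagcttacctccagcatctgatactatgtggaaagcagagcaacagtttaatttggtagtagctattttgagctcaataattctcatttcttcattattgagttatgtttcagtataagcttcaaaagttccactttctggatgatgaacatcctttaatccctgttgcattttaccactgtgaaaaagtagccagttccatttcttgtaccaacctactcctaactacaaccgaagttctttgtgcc

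The promoters of these 3 transcription factor genes held more CpG than most, with 34 in Batf3, 38 in Irf8 and 11 in Irf4, against a median of 7 over 32851 promoters of this length. Those of the surface receptor genes had few: 1 in Clec9a, 6 in Xcr1, 1 in Cd209a and 2 in Siglech. The factor gene Zbtb46 also had 1, in a window that lies inside the gene as the count table places it, at an internal annotated start, and Fscn1 had 21. A GAGGAA match stood in Batf3, Irf4 and Siglech (28.3% of all promoters hold one), and the NF-kB pattern in Irf8 and Irf4 (20.7%). The ETS and IRF composite stood only in Cd209a among the members (2.72%) and TGANTCA only in the internal Zbtb46 window (7.81%). The interferon regulatory factor pattern, held by 3.44% of all promoters, stood in none of the 9. Irf8 has another annotated start, whose window, with 8 CpG, held none of the motifs.

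Reads totalled 13469851 to 20402401 per tumour, and a gene with no reads could still be present at up to 3, or 0.139 to 0.311 CPM, the unit of reads normalised for library size. Pak2 itself averaged 180.0 ± 44.9 CPM in tumours labelled Pak2-null and 103 ± 20.9 CPM in wild-type tumours (SD, n = 4 and 3), so its transcript level does not show the deletion, and the label is used as given. Tumours 14A and 14B stood apart from the rest in leukocyte genes. All 10 pan-leukocyte genes were highest in 14A among the primary tumours, and Ptprc, the leukocyte phosphatase CD45, reached 1585 CPM in 14A and 1457 CPM in 14B, against 79.2 to 179 CPM in the other 6. Sex also moved with the labels: the Y-linked gene Ddx3y stood between 85.4 and 104 CPM in tumours 13, 14A, 59 and 61, labelled Pak2-null, at 116 CPM in wild-type tumour 127 and at 1.62 and 1.24 CPM in wild-type tumours 19 and 20. The part of sex in the results was not tested.

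No dendritic cell gene was found to differ between the labels beyond the spread of the tumours. Of the 9 tested members 0 passed a quasi-likelihood test in edgeR at a p of 0.05 after Benjamini-Hochberg adjustment over all 15412 tested genes, of which 0.0714% passed (0.0195% as higher). Adjusted p values given below for edgeR come from this test. At an unadjusted p under 0.05 it was also 0 of 9, against 12.9% of all genes (4.39% higher and 8.55% lower). DESeq2 and limma-voom with quality weights also called 0 members at an adjusted p under 0.05, where they called 7.71% and 6.16% of the genes to which they gave an adjusted p, and DESeq2 gave none to Batf3. At an unadjusted p under 0.05 each of these tools had 1 member, Clec9a by DESeq2 (17.6% of all genes) and Fscn1 by limma-voom (25.0%). The values of tumours labelled Pak2-null and of wild-type tumours overlapped for every member, while 14.0% of tested genes had groups that did not overlap (5.07% higher and 8.93% lower). Of the 9, 8 had a higher mean and 1 a lower mean in tumours labelled Pak2-null, with a median log2 fold change of 0.54. Over all tested genes 54.5% had a higher mean and the median was 0.06.

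**Figure D1:**
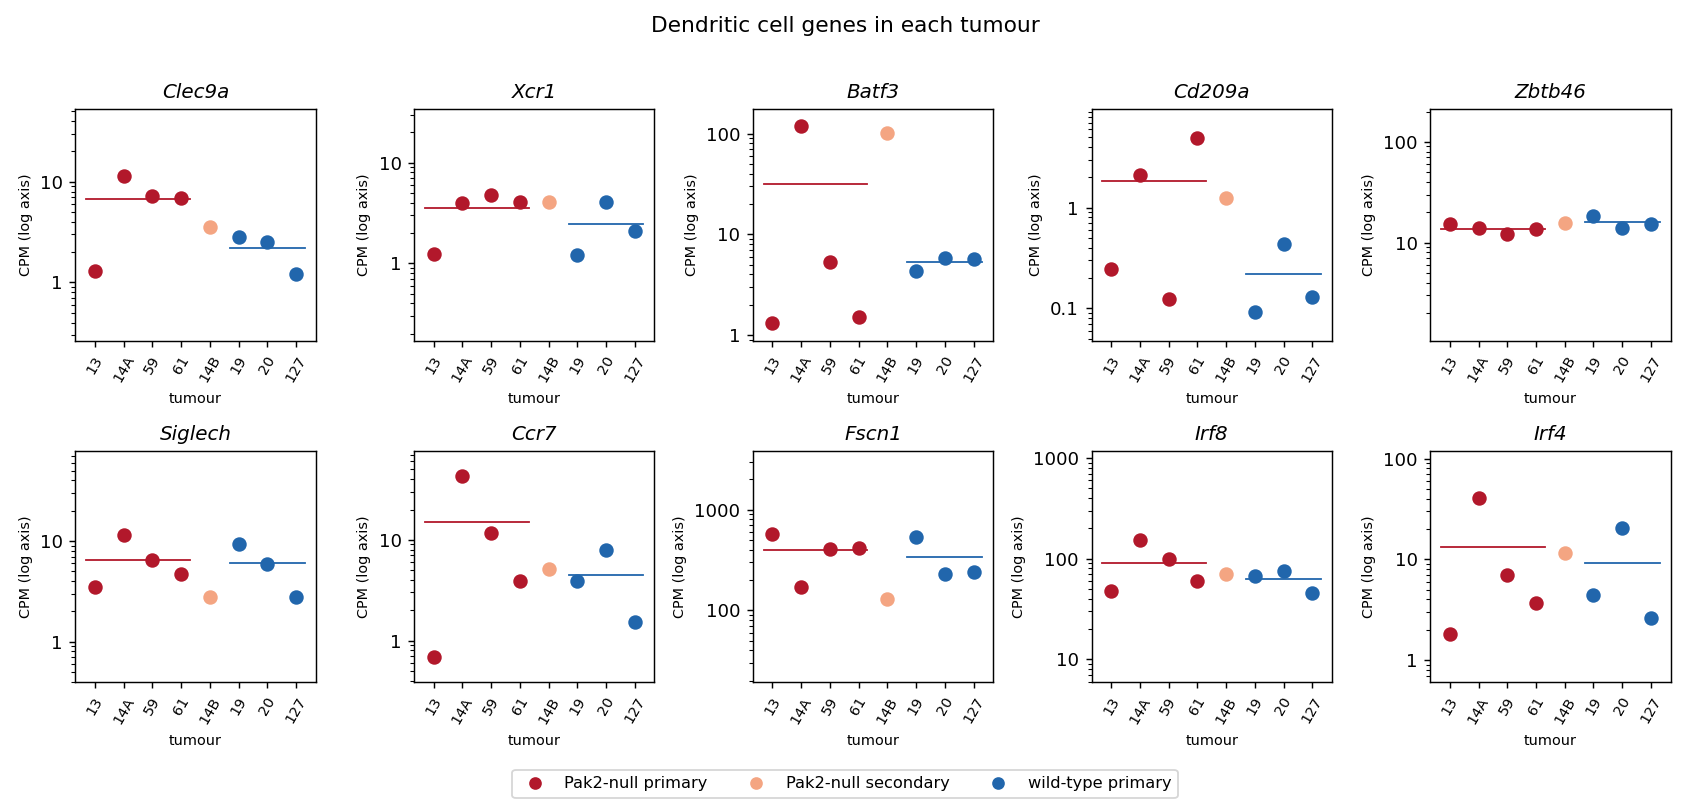
Level of each of the 10 dendritic cell genes in CPM (log axis, each panel spanning the same number of decades) in each tumour, with a line at each primary group's mean. Batf3 stands near 100 CPM in 14A and 14B alone, Zbtb46 is nearly level, and in every panel the red points of primary tumours labelled Pak2-null overlap the blue wild-type ones.

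Clec9a, of type 1 conventional dendritic cells, had the lowest p of the 9 tested members. Its product is a lectin that senses dead cells by their exposed actin (ENSMUSG00000046080, chromosome 6, 129408862 to 129424764). Clec9a stood at 1.30, 11.4, 7.16 and 6.87 CPM in tumours 13, 14A, 59 and 61, labelled Pak2-null, at 3.52 CPM in tumour 14B, and at 2.83, 2.54 and 1.22 CPM in wild-type tumours 19, 20 and 127. Thus 3 of the 4 primary tumours labelled Pak2-null lay above every wild-type tumour and tumour 13 lay among them. The means were 6.69 ± 4.15 CPM in primary tumours labelled Pak2-null and 2.20 ± 0.859 CPM in wild-type tumours (SD, n = 4 and 3). The log2 fold change was 1.62 (SE 0.73, 95% interval -0.096 to 3.33; edgeR adjusted p = 0.415). Leaving out tumour 13 gave 1.96 and leaving out 14A gave 1.23, and neither passed. The neighbouring platelet receptor gene Clec1b overlaps Clec9a on the same strand and had at most 87 reads in a tumour, so a few reads may be shared.

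Xcr1, the receptor for the chemokine XCL1 that lymphocytes release, was low throughout (ENSMUSG00000060509, chromosome 9, 123852315 to 123862029). Xcr1 stood at 1.24, 3.96, 4.81 and 4.10 CPM in tumours 13, 14A, 59 and 61, labelled Pak2-null, at 4.04 CPM in 14B, and at 1.21, 4.10 and 2.12 CPM in wild-type tumours 19, 20 and 127. Tumours of both labels lay near 4 CPM and near 1.2 CPM. Between the labels the log2 fold change was 0.53 (SE 0.63, 95% interval -0.94 to 2.01; edgeR adjusted p = 0.764). Unlike Clec9a, Xcr1 was not highest in 14A, where it stood at 0.822 of the highest other primary tumour.

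Batf3 gave the widest range of all members (ENSMUSG00000026630, chromosome 1, 191098414 to 191108943). It encodes the partner of IRF8 that type 1 dendritic cells need, and it is also used by activated T cells. Batf3 stood at 1.30, 118, 5.25 and 1.502 CPM in tumours 13, 14A, 59 and 61, labelled Pak2-null, at 100.5 CPM in tumour 14B, and at 4.31, 5.77 and 5.71 CPM in wild-type tumours 19, 20 and 127. The 3 wild-type tumours were close together, tumours 13 and 61 were below them, and 14A stood 20.5-fold above the highest other primary tumour, with 14B close to it. In reads this was 2298 in 14A and 969 in 14B, against 21 to 93 elsewhere. The mean log2 fold change of 2.60 (SE 1.65, 95% interval -1.26 to 6.46) did not pass (edgeR adjusted p = 0.561). It rested on tumour 14A, since without it the log2 fold change was -0.95 (edgeR adjusted p = 0.523).

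Cd209a, a lectin of type 2 dendritic cells related to human DC-SIGN, was too scarce for the main test (ENSMUSG00000031494, chromosome 8, 3743395 to 3748984). Cd209a had 4, 41, 2 and 85 reads in tumours 13, 14A, 59 and 61, labelled Pak2-null, 12 reads in 14B, and 2, 7 and 2 reads in wild-type tumours 19, 20 and 127. Tumours 61 and 14A, at 4.91 and 2.11 CPM, were above the 0.0927 to 0.435 CPM of the wild-type tumours, while tumours 13 and 59 fell within that range.

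Zbtb46, a transcription factor gene of the whole conventional lineage, was the most even member (ENSMUSG00000027583, chromosome 2, 181387762 to 181459426). Zbtb46 stood at 15.4, 14.1, 12.2 and 13.5 CPM in tumours 13, 14A, 59 and 61, labelled Pak2-null, at 15.7 CPM in 14B, and at 18.5, 14.0 and 15.1 CPM in wild-type tumours 19, 20 and 127. Its highest tumour exceeded its lowest by 1.52-fold, where Ptprc in the same tumours ran from 79.2 to 1585 CPM. Its log2 fold change was -0.18 (SE 0.24, 95% interval -0.75 to 0.39; edgeR adjusted p = 0.793). The endothelial gene Cdh5, VE-cadherin, was transcribed in every tumour at 40.2 CPM or more, and its part in the Zbtb46 level was not tested.

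Siglech, the surface lectin of plasmacytoid dendritic cells, had the log2 fold change nearest to 0 among the 9 tested members (ENSMUSG00000051504, chromosome 7, 55768178 to 55778925). Siglech stood at 3.47, 11.4, 6.48 and 4.74 CPM in tumours 13, 14A, 59 and 61, labelled Pak2-null, at 2.80 CPM in 14B, and at 9.32, 5.96 and 2.76 CPM in wild-type tumours 19, 20 and 127. Tumours 14A and 19, of different labels, were the highest. The difference by label was a log2 fold change of 0.13 (SE 0.57, 95% interval -1.21 to 1.48; edgeR adjusted p = 0.945), and it was -0.28 without tumour 14A.

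**Figure D2:**
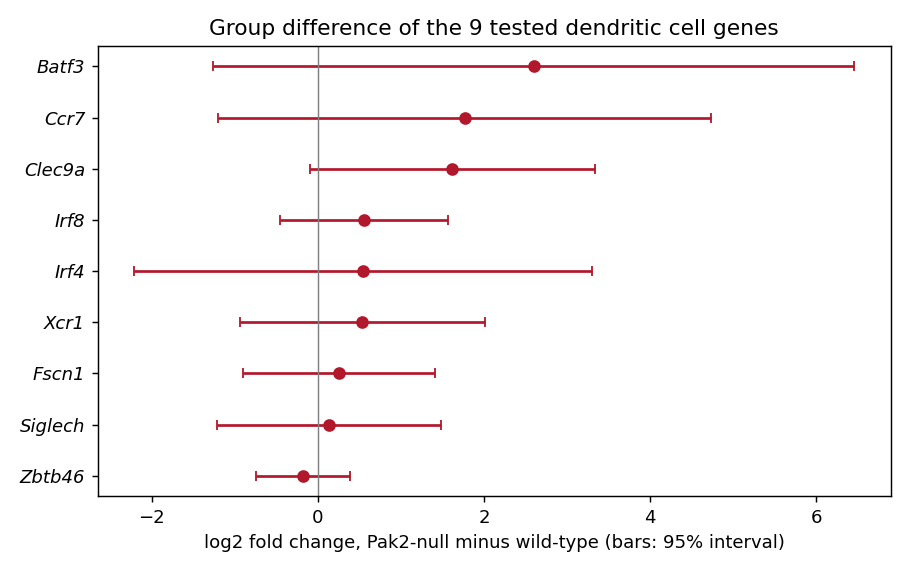
Log2 fold change of the 9 tested dendritic cell genes, tumours labelled Pak2-null minus wild-type, with 95% intervals from edgeR's quasi-likelihood fit. Every interval includes 0, from the narrow one of Zbtb46 (-0.75 to 0.39) to the wide one of Batf3 (-1.26 to 6.46).

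Both genes of mature, migrating dendritic cells were measured, and their levels ran apart. Ccr7 encodes the receptor that guides mature dendritic cells and naive lymphocytes to lymph nodes (ENSMUSG00000037944, chromosome 11, 99144196 to 99155077). Ccr7 stood at 0.681, 43.5, 11.7 and 3.93 CPM in tumours 13, 14A, 59 and 61, labelled Pak2-null, at 5.08 CPM in 14B, and at 3.89, 7.95 and 1.54 CPM in wild-type tumours 19, 20 and 127. Both the lowest and the highest tumour carried the Pak2-null label. The log2 fold change was 1.76 (SE 1.26, 95% interval -1.20 to 4.73; edgeR adjusted p = 0.603), and 0.31 without 14A.

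Fscn1 encodes fascin, which bundles actin in the dendrites of mature cells (ENSMUSG00000029581, chromosome 5, 142960343 to 142973185). Fscn1 stood at 573, 172, 411 and 419 CPM in tumours 13, 14A, 59 and 61, labelled Pak2-null, at 130 CPM in 14B, and at 538, 230.0 and 243 CPM in wild-type tumours 19, 20 and 127. Tumours 14A and 14B were the lowest, and tumour 13, which was lowest in Ccr7, was the highest. Between the labels the log2 fold change was 0.25 (SE 0.49, 95% interval -0.91 to 1.40; edgeR adjusted p = 0.862). It was 0.0039 without tumour 13, 0.74 without tumour 19 and 0.76 by limma-voom with quality weights (limma adjusted p = 0.139). By the rule for likeness over the 7 primary tumours, the genes nearest to Fscn1 were the signalling adaptor gene Shc1 (Pearson r = 0.984), the syndecan gene Sdc1 (r = 0.982) and the scavenger receptor gene Stab1 (r = 0.981). Those nearest to Ccr7 were Gimap1, Gimap7 and Nab1 (r = 0.991, 0.987 and 0.986), the Gimap genes being GTPase genes of lymphocytes. Between Ccr7 and Fscn1 themselves r was -0.61. The nearest genes are the best of 12346 candidates, and r describes these 7 tumours.

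Irf8 encodes the factor that plasmacytoid and type 1 conventional cells share (ENSMUSG00000041515, chromosome 8, 120736358 to 120756694). Irf8 stood at 47.7, 154, 99.98 and 60.2 CPM in tumours 13, 14A, 59 and 61, labelled Pak2-null, at 69.9 CPM in 14B, and at 66.5, 75.2 and 45.5 CPM in wild-type tumours 19, 20 and 127. Tumours 14A and 59 lay above the wild-type range, and 13 and 61 within it. Its log2 fold change was 0.56 (SE 0.43, 95% interval -0.46 to 1.57; edgeR adjusted p = 0.632), and 0.17 without 14A. Macrophages and B cells also use Irf8. The gene nearest to it over the 7 primary tumours was Traf1, an adaptor of TNF receptors (r = 0.986, and 0.968 without 14A).

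Irf4 directs type 2 dendritic cells, and in B cells the step to plasma cells (ENSMUSG00000021356, chromosome 13, 30749226 to 30766927). Irf4 stood at 1.80, 40.2, 6.91 and 3.70 CPM in tumours 13, 14A, 59 and 61, labelled Pak2-null, at 11.6 CPM in 14B, and at 4.45, 20.4 and 2.63 CPM in wild-type tumours 19, 20 and 127. Tumour 14A was 1.97-fold above wild-type tumour 20, the next highest. The difference by label was a log2 fold change of 0.54 (SE 1.18, 95% interval -2.22 to 3.30; edgeR adjusted p = 0.876), and without 14A it was -1.13. Among the genes nearest to Irf4 over the 7 primary tumours were the antibody heavy chain genes Ighg2b (r = 0.988, and 0.983 without 14A) and Ighg2c (r = 0.987, and 0.974 without 14A).

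Per kilobase of gene length, the scale on which genes may be compared, Fscn1 was the highest member in every tumour except 14A and 14B. It had 214, 64.4, 154 and 157 CPM per kilobase in tumours 13, 14A, 59 and 61, labelled Pak2-null, 48.7 in 14B, and 201, 86.0 and 90.8 in wild-type tumours 19, 20 and 127. Batf3 took that place in 14A and 14B, at 166 and 141 CPM per kilobase, and stood between 1.83 and 8.11 elsewhere. Irf8 ran from 13.1 to 44.3 CPM per kilobase. Clec9a, Xcr1, Cd209a, Zbtb46 and Siglech stayed at 4.94 CPM per kilobase or below in all 8 tumours, and Ccr7 and Irf4 exceeded that only in 14A (22.0 and 8.52) and, for Ccr7, tumour 59 (5.93).

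Tumour 14A carried the highest value among primary tumours for 6 of the 9 tested members: Clec9a, Batf3, Siglech, Ccr7, Irf8 and Irf4. Of all tested genes 24.9% were highest in 14A. In 2 members, Batf3 and Ccr7, 14A was at least 2-fold above the highest other primary tumour, which held for 6.69% of all tested genes. Tumour 14B bears the same number, though the labels do not say that 14A and 14B came from 1 animal. Set against 14A, the members divided in 14B: 5 of 9 were at least 2-fold lower in 14B (Clec9a, Siglech, Ccr7, Irf8 and Irf4), as were 7.09% of all tested genes, and 0 of 9 were at least 2-fold higher (8.89% of all genes). Ccr7 was 8.57-fold and Siglech 4.06-fold higher in 14A than in 14B, while Batf3 (1.18-fold) and Xcr1 (0.979-fold) were nearly level. CPM is scaled to the reads in tested genes, a set chosen on the primary tumours alone. These were 11141192 of 13469851 reads in 14B and 19667212 of 20402401 in 14A. The part of that difference in the folds was not tested.

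Markers of other leukocytes divided in the same way, and their part in the members' levels was not tested. Of 9 B cell markers 8 were highest in 14A among the primary tumours, their summed level running from 78.3 to 606 CPM in primary tumours labelled Pak2-null, 219 CPM in 14B and from 39.7 to 161 CPM in wild-type tumours, and Pax5 was at 0 in tumours 13 and 127. Ebf1, which other cells also use, was the exception, at 18.7 CPM in 14A and 156, 74.7 and 68.8 CPM in tumours 13, 59 and 61. Without it the sum was 3.78, 587, 30.1 and 9.41 CPM in tumours 13, 14A, 59 and 61, labelled Pak2-null, 187 CPM in 14B, and 17.1, 132 and 15.6 CPM in wild-type tumours 19, 20 and 127. Of 11 T cell markers 10 were highest in 14A, with Cd3e at 37.4 CPM there and 6.53 CPM in 14B. Cd3d and Cd5 had tumours at 0, and the summed level ran from 512 to 915 CPM in primary tumours labelled Pak2-null, 209 CPM in 14B and from 91.4 to 253 CPM in wild-type tumours, and Thy1, also a fibroblast gene, had 456 to 910 CPM of it in tumours 13, 59 and 61. The macrophage list summed to 3592 to 10637 CPM in primary tumours labelled Pak2-null, 10122 CPM in 14B and 1945 to 5878 CPM in wild-type tumours. Of its 12 genes 7 were highest in 14A among the primary tumours, as were 24.9% of all tested genes. Others ran the other way. Mrc1 stood at 48.8 CPM in 14A and 122 CPM in 14B, against a median of 350 CPM in the other 6 primary tumours. Cd163 stood at 11.9 and 17.8 CPM, against a median of 71.5 CPM. Lymphoid tissue stroma genes summed to 3867 CPM in 14A and 3120 CPM in 14B, against 41.7 to 408 CPM in the other 6 tumours, nearly all of it Cxcl13, the B cell chemokine (3566 and 3004 CPM), and Ccl19 was at 0 in tumour 13.

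**Figure D3:**
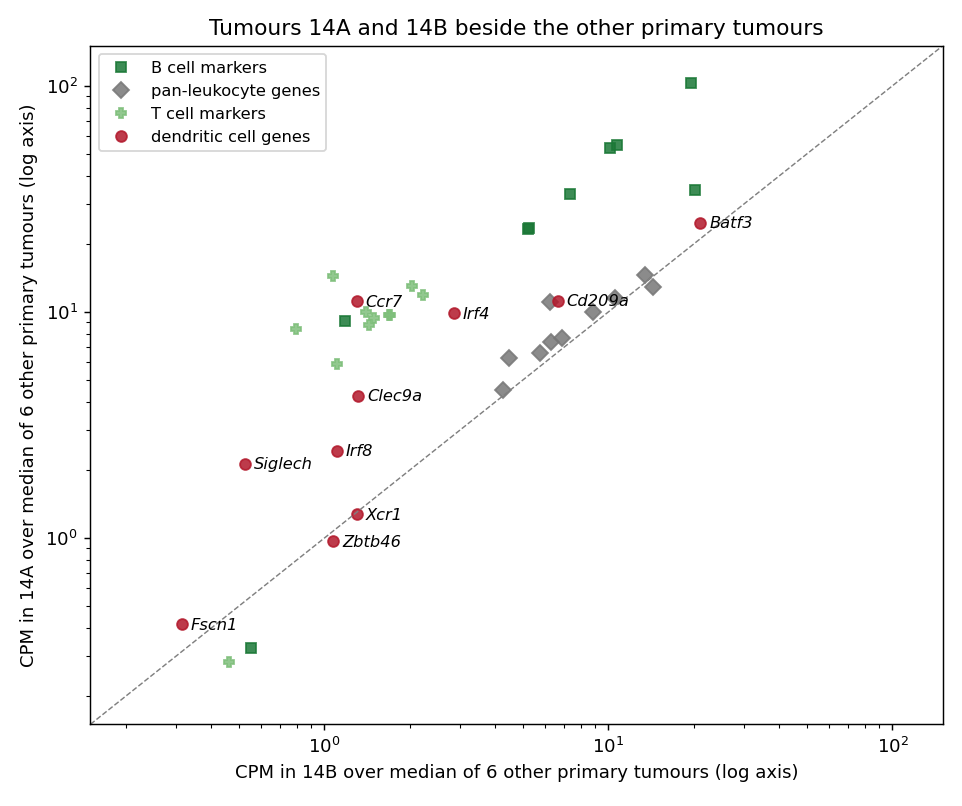
CPM in 14A (vertical) and 14B (horizontal), each over the median of the other 6 primary tumours, for dendritic cell genes, B cell markers, T cell markers and pan-leukocyte genes (log axes, dashed line where both are equal). Batf3 (24.7 and 21.0) lies on the line with the pan-leukocyte genes, and Ccr7 (11.1 and 1.30) and Irf4 (9.87 and 2.85) lie above it with most lymphocyte markers.

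Set against Ptprc, 6 of the 9 tested members were lower in 14A and 14B than in all other tumours. The same held for 89.3% of all other tested genes, Ptprc itself being highest in these tumours, and nothing particular to the members is read from it. Irf8 stood at 60.2, 9.71, 55.8 and 61.9 CPM per 100 CPM of Ptprc in tumours 13, 14A, 59 and 61, labelled Pak2-null, at 4.80 in 14B, and at 65.9, 44.9 and 39.1 in wild-type tumours 19, 20 and 127. Clec9a stood at 0.720 and 0.242 per 100 CPM of Ptprc in 14A and 14B, and from 1.05 to 7.06 in the other 6 tumours. Batf3 was above all other tumours in both, at 7.45 in 14A and 6.90 in 14B against 1.54 to 4.90 elsewhere. Ccr7 and Irf4 lay within the range of the others in 14A, at 2.75 and 2.54, and below it in 14B, at 0.349 and 0.797. On the same scale no difference by label was found: the difference of mean log2 ratios, tumours labelled Pak2-null minus wild-type, ran from -0.98 for Zbtb46 to 0.40 for Clec9a, with exact two-sided permutation p from 0.286 to 1. The smallest p that 4 against 3 tumours allow is 0.0571.

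**Figure D4:**
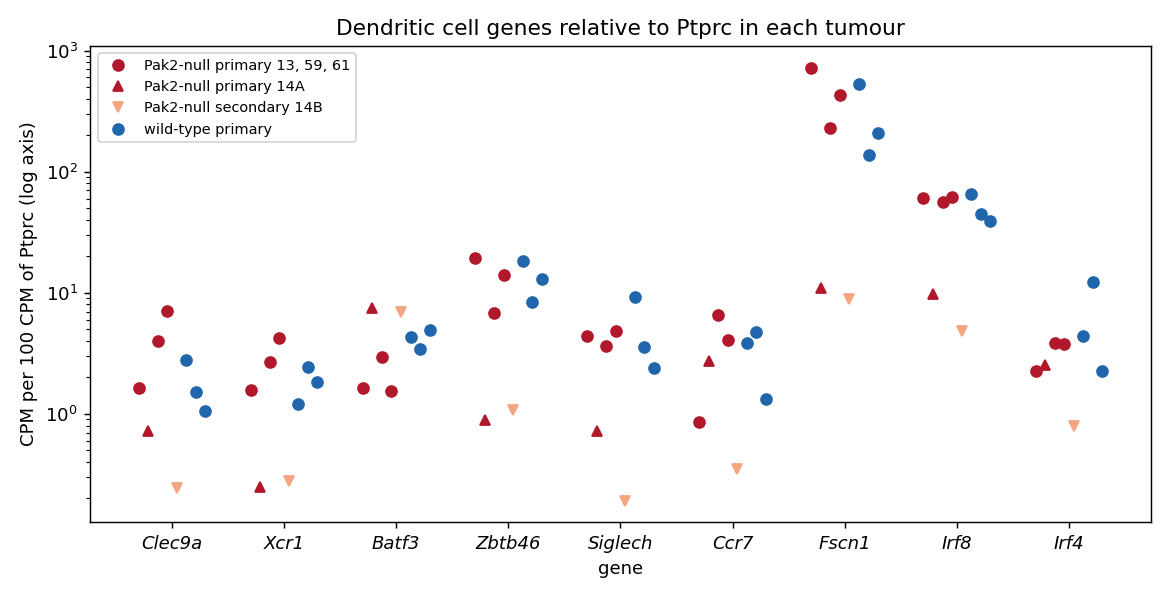
CPM of each tested dendritic cell gene per 100 CPM of Ptprc (log axis) in each tumour, triangles marking 14A and 14B. Both triangles lie below all other tumours for Clec9a, Xcr1, Zbtb46, Siglech, Fscn1 and Irf8, and above them for Batf3.

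The wider dendritic cell programme was read from lists of other genes, of which 0 passed the test in any list. Of 12 tested genes of type 1 cells, 6 had a higher and 6 a lower mean in tumours labelled Pak2-null, with a median log2 fold change of -0.0090. Ly75, the endocytic receptor DEC-205, averaged 32.7 ± 16.4 CPM in tumours labelled Pak2-null and 11.9 ± 3.80 CPM in wild-type tumours (SD, n = 4 and 3; log2 fold change 1.48, SE 0.45, edgeR adjusted p = 0.201), the 1 gene of this list with an unadjusted p under 0.05. Cadm1, an adhesion gene of type 1 cells that other tissues also use, followed Batf3. It stood at 428 CPM in 14A and 460 CPM in 14B, against 4.33 to 43.2 CPM in the other 6 tumours. Wdfy4 did likewise, at 253 and 189 CPM against 23.2 to 40.8 CPM. Of all 13 listed genes 5 were highest in 14A among the primary tumours, as were 24.9% of all tested genes. Ifi205 (6.01 and 7.77 CPM) and Sept3 (2.88 and 2.70 CPM) lay below the medians of the other 6 (11.9 and 3.62 CPM). Cadm1, Wdfy4, Ifi205 and Sept3 were named after their values were seen. Type 2 genes had 10 higher and 3 lower means among 13 tested, with a median of 0.75. Clec4a1, a myeloid lectin gene, stood at 910 CPM in 14A and 954 CPM in 14B and at 24.0 to 76.4 CPM elsewhere. Of all 15 listed type 2 genes 8 were highest in 14A among the primary tumours. The type 2 lectin genes Clec10a (14.1 and 9.43 CPM) and Mgl2 (8.07 and 10.4 CPM) lay below the medians of the other 6 in 14A and 14B. Those medians were 25.5 and 21.5 CPM. The other 6 ran from 5.20 to 84.9 CPM and from 5.88 to 88.7 CPM, so 14A and 14B lay within both ranges. Both genes were named after their values were seen.

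Of 15 tested genes shared by conventional dendritic cells, 11 had a higher and 4 a lower mean, with a median of 0.62. Flt3, the receptor for the growth factor on which dendritic cells depend, followed Clec9a and Siglech rather than Batf3, at 2.23, 12.4, 4.57 and 4.62 CPM in tumours 13, 14A, 59 and 61, labelled Pak2-null, 2.28 CPM in 14B, and 5.66, 4.66 and 1.41 CPM in wild-type tumours 19, 20 and 127; it was named after its values were seen. Adam23 averaged 11.2 ± 8.96 CPM in tumours labelled Pak2-null and 51.2 ± 18.7 CPM in wild-type tumours, and had an unadjusted p under 0.05 (log2 fold change -2.17, edgeR adjusted p = 0.219). Of 19 plasmacytoid genes 13 had higher and 6 lower means, with a median of 0.73. In 14A 12 of these 19 and 9 of the 15 shared genes were highest among the primary tumours, as were 24.9% of all tested genes. Cox6a2, which striated muscle also uses, had an edgeR adjusted p of 0.148. It averaged 5.52 ± 4.53 CPM in tumours labelled Pak2-null and 103.9 ± 94.6 CPM in wild-type tumours. Skeletal muscle genes moved with it, the summed muscle list running from 9.35 to 495 CPM in primary tumours labelled Pak2-null, 18.3 CPM in 14B and 1870 to 19559 CPM in wild-type tumours, and their part was not tested.

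Of 25 tested genes of mature migratory cells, 21 had a higher and 4 a lower mean, with a median of 0.34. The costimulatory ligand gene Cd80 averaged 41.3 ± 41.1 CPM in tumours labelled Pak2-null and 3.30 ± 1.64 CPM in wild-type tumours (log2 fold change 3.67, edgeR adjusted p = 0.168), yet stood at 5.29 CPM in 14A, where Ccr7 was highest, and at 100.4 CPM in tumour 13, where Ccr7 was lowest. Nudt17 averaged 3.49 ± 0.651 CPM in tumours labelled Pak2-null and 1.28 ± 0.188 CPM in wild-type tumours (edgeR adjusted p = 0.166). These were the 2 of the 25 with an unadjusted p under 0.05 and a higher mean, a class that held 4.39% of all tested genes. Of 10 tested factors that feed or recruit dendritic cells, 7 had higher means, and Csf2 had 0 reads in all 8 tumours. Kitl, the ligand of the receptor KIT, averaged 79.1 ± 49.9 CPM in tumours labelled Pak2-null and 29.1 ± 12.9 CPM in wild-type tumours (edgeR adjusted p = 0.299). Xcl1, the ligand of XCR1, averaged 1.53 ± 1.16 CPM in tumours labelled Pak2-null and 0.334 ± 0.216 CPM in wild-type tumours (edgeR adjusted p = 0.403). Natural killer cells make XCL1, and of 6 tested markers of these cells 0 passed and 4 had an unadjusted p under 0.05 with a higher mean. Their summed level ran from 7.06 to 50.9 CPM in primary tumours labelled Pak2-null, 12.6 CPM in 14B and 2.60 to 7.14 CPM in wild-type tumours, and their part was not tested.

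Of 19 other interferon regulatory factor, Batf and lineage factor genes, 15 had a higher and 4 a lower mean in tumours labelled Pak2-null, with a median of 0.57. Among the primary tumours 13 were highest in 14A, as were 24.9% of all tested genes. Some of these genes also stand on other lists. Batf, a close relative of Batf3, stood at 119 CPM in 14A and 143 CPM in 14B, and at 4.64 to 10.5 CPM in the other 6; it was named after its values were seen. All 11 MHC class II presentation genes had higher means, with a median of 0.32 and edgeR adjusted p values of 0.567 or more. Their summed level ran from 1262 to 9624 CPM in primary tumours labelled Pak2-null, 3727 CPM in 14B and 2608 to 6018 CPM in wild-type tumours, with tumour 59, not 14A, the highest.

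**Figure D5:**
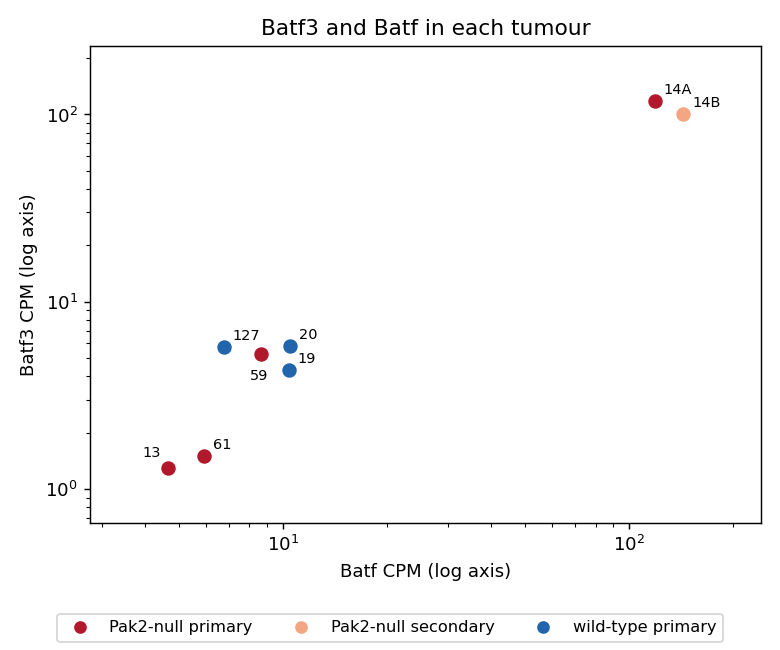
Batf3 against its relative Batf in CPM on log axes, 1 point a tumour. Tumours 14A and 14B, each over 100 CPM in both genes, stand apart from the other 6.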

How the data were processed

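The authors deposited raw read counts per gene, 1 column for each of the 8 tumours, with 0 columns of other samples. STAR, HTSeq and the build GRCm38 (mm10) are named in the submitters' processing notes. Tool versions, the annotation release and the strand setting were not given in the sources used here, so reads of overlapping genes cannot be told apart. Coordinates are those of the deposited table.

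Counts of the 4 primary tumours labelled Pak2-null and the 3 wild-type ones entered a fit in edgeR 4.0.16 under R 4.3.3 (TMM, filterByExpr with minimum count 10 and minimum total 15, quasi-likelihood test, Benjamini-Hochberg over 15412 of 35275 genes at 0.05). No covariate was used, since no label gives a batch. SE was obtained by dividing the absolute log2 fold change by the square root of F. CPM uses TMM factors of all 8 tumours. Ratios to Ptprc used a pseudocount of 0.5 CPM. Floors and the Poisson intervals of the secondary tumour cover counting error only. Intervals of log2 fold changes come from the quasi-likelihood fit and also cover the spread among tumours.

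DESeq2 1.42.0, limma 3.58.1 (voom with quality weights), other normalisations and filters, tumour 14B added or summed with 14A, and leaving out each tumour were alternatives. Tumour 14B was compared without a test. Members and lists were chosen with earlier results of these data known. The text names the members, Ptprc, the targeted genes, up to 3 tested genes of lowest p per list, and the 3 genes with the highest Pearson r to a member over 7 primary tumours (mean log2 CPM at least 1, prior count 2). Other genes are said to be named after their values were seen, or serve as markers of other cell types. A gene that this rule names is not reported here.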

Additional observations from a re-analysis of the deposited data

Results flagged for a closer look

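Within the 4 primary tumours labelled Pak2-null, tumour 14A lay far from the others in 2 of the 10 dendritic cell genes. Batf3 stood at 118.1 CPM there and at 1.30 to 5.25 CPM in the other 3, and the gap to the nearest tumour was 0.966 of the group's whole range, above Dixon's 95% critical value for 4 samples. Irf4 stood at 40.19 CPM against 1.80 to 6.91 CPM, with a gap of 0.867. Chance flags about 1 in 20 groups. Over all tested genes 14.1% were past that value in these 4 tumours, and 8.11% were so with 14A highest. The secondary tumour 14B, which enters no test, held Batf3 at 100.5 CPM (exact 95% Poisson interval 94.2 to 107), above the 4.31 to 5.77 CPM of the wild-type tumours. It held Cd209a at 1.244 CPM (0.643 to 2.17), above their 0.0927 to 0.435 CPM. That interval covers the 12 reads of 14B only. The counting error of the 2, 7 and 2 reads in wild-type tumours 19, 20 and 127 was not set beside it.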

How the results depend on the processing

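No dendritic cell gene passed in any of the 15 alternatives. Over all genes, 11 passed in the comparison as reported, 20 with the stricter filter, 1149 by DESeq2, 950 by limma-voom with quality weights and 191 with tumour 14B added, and 0 (without 13, 59, 61 or 20) to 59 (without 19) when each tumour was left out. Clec9a kept a positive log2 fold change in all 15, from 1.23 to 1.96, with the lowest adjusted p of 0.194 by DESeq2. DESeq2 gave no p for Batf3. Signs turned for Batf3 (-0.59) and Irf4 (-0.72) by limma-voom with quality weights, and for Siglech with 14B added (-0.042) or summed with 14A (-0.034). When each tumour was left out, Batf3 ran from -0.95 to 3.0, Irf4 from -1.13 to 1.91 and Siglech from -0.28 to 0.58, the lowest without 14A in each, and all of these were far from the threshold. The differences of log2 ratios to Ptprc, none of which could reach 0.05 in this design, turned sign with MHC class II genes in place of Ptprc for Xcr1 (0.31), Batf3 (0.17), Ccr7 (0.66), Fscn1 (0.087) and Irf8 (0.29), and with pan-leukocyte genes for Ccr7 (0.20). When each tumour was left out they ran from -0.091 to 1.02 for Clec9a, -0.84 to 0.52 for Xcr1, -0.48 to 0.39 for Ccr7, -1.27 to 0.74 for Fscn1 and -0.61 to 0.28 for Irf8. The cause of these turns was not tested. No paired analysis was possible because the groups share no replicate numbers. The wide intervals of Batf3, Ccr7 and Irf4 and the 2 to 85 reads of Cd209a limit what can be seen.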

Other observations

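Batf3 was not the only gene of its neighbourhood to stand high in tumours 14A and 14B. Within 500 kilobases of Batf3 on chromosome 1 lay 12 other genes with at least 100 reads in all, those of 14A and 14B included. Of these, 4 were at least 2-fold above the highest other primary tumour in 14A (Atf3, Nsl1, Mfsd7b and D730003I15Rik). The same held for 6.69% of all tested genes. D730003I15Rik, with 10 to 24 reads in each of the other 6 tumours, reached 100 only with the reads of 14A and 14B. Atf3, a stress-responsive gene of the same leucine zipper superfamily, lies 61353 bases from Batf3. It stood at 262 CPM in 14A and 228 CPM in 14B, and at 5.20 to 24.7 CPM in the other 6 tumours. Nsl1, a kinetochore gene 13856 bases away, stood at 49.4 and 39.0 CPM, and at 4.36 to 19.7 CPM in the other 6. Tatdn3, 35482 bases away, stood at 11.7 and 10.5 CPM, and at 3.16 to 9.18 CPM elsewhere, while Vash2, an angiogenesis gene, was lowest in 14A, at 1.23 CPM. The window was chosen after the values of Batf3 were seen.

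Genes whose levels ran most like a member over the 7 primary tumours differed from member to member. For Batf3 they were the telomerase component gene Tep1 (r = 0.991), the phagocyte oxidase gene Cybb (r = 0.988) and the myeloid receptor gene Sirpb1a (r = 0.987), with r from 0.943 to 0.961 without 14A. For Clec9a they were the lymphocyte homing integrin gene Itgb7 (r = 0.984), Irf1 (r = 0.964) and Tnfrsf9 (r = 0.962). For Siglech they included Birc3 (r = 0.972), itself on the migratory list. No gene of the type 1 list was among the 3 nearest to Clec9a, Xcr1 or Batf3. With 12 tested genes on that list and 12346 candidates, nothing is read from that absence. The nearest genes are the best of 12346 candidates over 7 tumours and are a description.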
